A study of Mus musculus with 9 samples.

Results

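Classical cadherins are the adhesion receptors of adherens junctions, and 9 cadherin genes were followed here through the mRNA libraries of 3 mouse striatal cell lines. They were taken by symbol from the deposited gene counts. They are the type I genes *Cdh1* (E-cadherin), *Cdh2* (N-cadherin), *Cdh3* (P-cadherin) and *Cdh4* (R-cadherin), the type II genes *Cdh5* (VE-cadherin), *Cdh6*, *Cdh10* and *Cdh11*, and *Cdh13* (T-cadherin). *Cdh13* is not a classical cadherin in the strict sense, because its protein is held in the membrane by a lipid anchor and lacks the cytoplasmic tail. These 9 were chosen from 36410 genes in the table, and 8 of them were among the 13508 genes that passed the filter on low counts, *Cdh4* being the exception.

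The lines are immortalized striatal cells of strain C57/BL6 derived from knock-in mouse embryos. The control line (STHdhQ7/Q7) carries 7 glutamine codons in exon 1 of both huntingtin alleles, the HD-het line (STHdhQ7/Q111) carries 1 allele with 7 and 1 with 111, and in the HD-homo line (STHdhQ111/Q111) both alleles have 111. There were 3 libraries from a single line of each genotype, and an effect of the genotype cannot be told apart from one of the line. Nothing in the labels says whether the 3 libraries came from separate cultures, and the p values therefore measure only the spread between these libraries.

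Cadherins bind the same or a related cadherin on the neighbouring cell through calcium-dependent extracellular repeats. The cytoplasmic tail of a classical cadherin binds p120-catenin near the membrane and beta-catenin or plakoglobin further down, and alpha-catenin then links the complex to actin. N-cadherin holds neural progenitors together in the ventricular zone, E- and P-cadherin are typical of epithelia, VE-cadherin is typical of endothelium, and type II cadherins are known for marking groups of neurons in the developing brain.

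The gene counts of a library summed to 29507665 at the lowest and 41197931 at the highest. Levels are given as CPM, the count of a gene scaled to a common library size, and the floor of detection was set at 3 counts in a library, or 0.0710 to 0.101 CPM. This floor covers counting error only. Unless another tool is named, adjusted p values are those of the quasi-likelihood test in edgeR, adjusted by the Benjamini-Hochberg method over all tested genes. The targeted gene *Htt* lay at 93.0 to 103.7 CPM in control, 61.1 to 64.0 CPM in HD-het and 19.2 to 21.7 CPM in HD-homo libraries, and gene counts do not show which allele was read. Of the neuronal genes, *Map2* and *Tubb3* were expressed in all lines, whereas *Stmn2* had a mean CPM of 53.7 in control, 2.71 in HD-het and 2.75 in HD-homo cells, and *Nefm* had 81 to 115 counts in control and at most 11 in any HD library. *Rbfox3*, *Snap25*, *Syt1* and *Nefl* had at most 3 counts in every library of each line, as did the dopamine receptors *Drd1* and *Drd2*. Of the 9 markers of striatal projection neurons, which include these receptors, 4 passed the filter on low counts, *Penk*, *Adora2a*, *Rgs9* and *Bcl11b*. The 9 markers summed to between 1.64 and 4.56 CPM over all libraries. *Penk* had 33 to 46 counts in control, 8 to 22 in HD-het and 68 to 116 in HD-homo libraries. The genes of a list of mesenchymal markers summed to between 5858 and 18483 CPM over the 9 libraries. Most of this sum was *Fn1*, with a mean CPM of 3983 in control, 9090 in HD-het and 5335 in HD-homo cells, and *Col1a1*, with 2465, 7097 and 4234. *Thy1*, on the same list, had at most 3 counts in every library, and so did *Lum* in control and HD-het cells.

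Of the 9 genes, the control and HD-het lines expressed mainly *Cdh2*. In the HD-homo line *Cdh2*, *Cdh13*, *Cdh6* and *Cdh11* all took a sizeable share. Their order depended on the length assigned to each gene. The shares leave out other cadherins, such as *Cdh24*, with a mean CPM of 28.2 in control, 29.3 in HD-het and 20.1 in HD-homo cells. *Cdh22*, also left out, had a mean CPM of 23.6 in HD-het cells. Levels of different genes were compared as CPM per kilobase of the longest coding transcript of GENCODE release 21 for mouse. On this scale *Cdh2* stood at 83.9 ± 1.69 (SD, n = 3) CPM per kilobase in the control line, at 84.6 ± 4.41 (SD, n = 3) in HD-het and at 12.4 ± 1.04 (SD, n = 3) in HD-homo. The summed level of the 9 genes was 108.5 ± 1.61 (SD, n = 3) CPM per kilobase in control, 104.4 ± 2.73 (SD, n = 3) in HD-het and 36.7 ± 2.29 (SD, n = 3) in HD-homo cells.

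**Figure D1:**
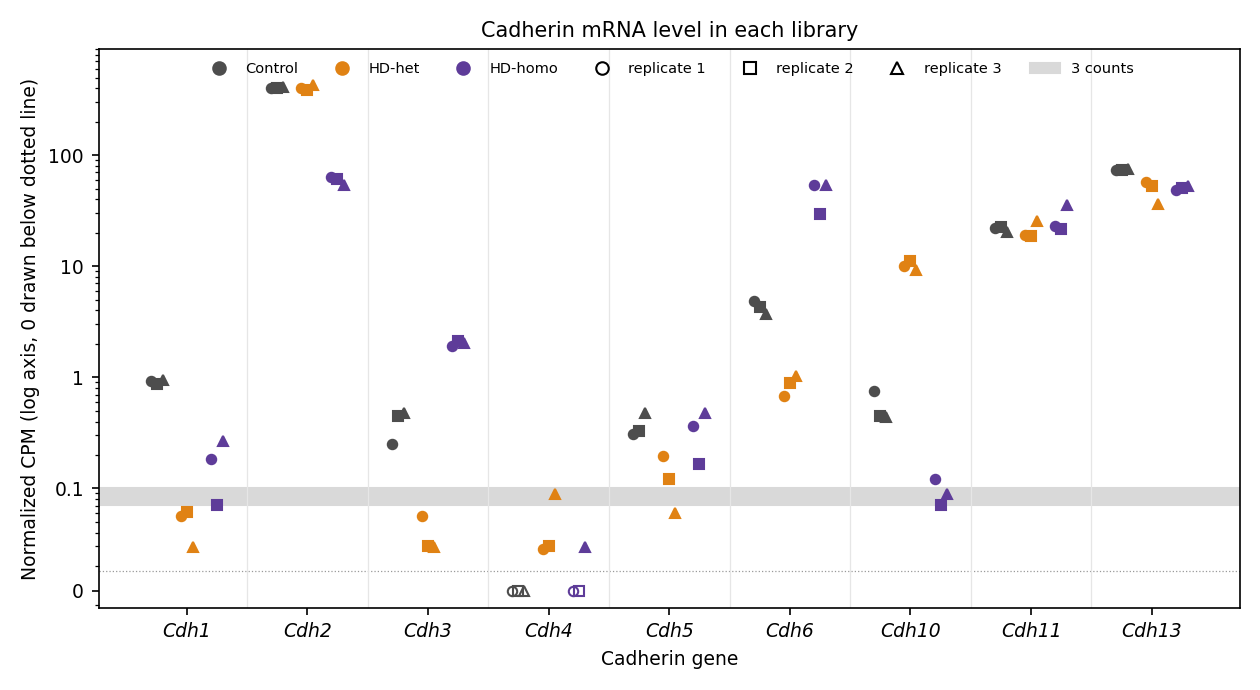
Normalized CPM (log axis) of the 9 cadherin genes in each of the 9 libraries, with colour for the line and marker shape for the replicate; libraries with 0 counts are drawn as open markers below the dotted line, and the grey band is the level of 3 counts. The HD-homo points lie apart below the others for *Cdh2* and above them for *Cdh3* and *Cdh6*, the HD-het points lie above the others for *Cdh10*, and the points of the lines run together for *Cdh11*.

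In control cells *Cdh2* made up 77.3% ± 0.416 (SD, n = 3) of this sum, *Cdh13* made up 18.1% ± 0.166 and *Cdh11* made up 3.54% ± 0.252. Lower in the order came *Cdh6*, *Cdh1*, *Cdh10*, *Cdh5* and *Cdh3*, each under 1%. The libraries of *Cdh1* and *Cdh10* overlapped on the scale per kilobase in control cells, and so did those of *Cdh5* and *Cdh3*, so that these neighbours were not separated beyond their spread.

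In HD-het cells *Cdh2* made up 81.1% ± 2.62 (SD, n = 3) of the sum and *Cdh13* made up 12.4% ± 2.94, followed by *Cdh11* with 3.56% ± 0.567 and *Cdh10* with 2.86% ± 0.358. *Cdh10* thus stood directly behind *Cdh11*, and their libraries overlapped, with 2.73 to 3.30 CPM per kilobase for *Cdh10* and 3.30 to 4.48 for *Cdh11*. With the union of all annotated exons as the length, an alternative chosen after seeing the data, *Cdh10* made up 1.73% ± 0.235 (SD, n = 3) and *Cdh11* 4.01% ± 0.574 of the HD-het sum. *Cdh1*, *Cdh3* and *Cdh4* were at 3 counts or fewer in every HD-het library and could not be ordered.

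In HD-homo cells *Cdh13* made up 36.6% ± 2.70 (SD, n = 3) and *Cdh2* 33.8% ± 4.29 of the sum, with overlapping libraries, followed by *Cdh6* with 15.2% ± 3.96 and *Cdh11* with 12.7% ± 2.95, which overlapped as well. *Cdh3* made up 1.26% ± 0.127. With the union of exons as the length, the HD-homo shares were 36.3% for *Cdh2*, 24.4% for *Cdh6*, 22.0% for *Cdh13* and 14.4% for *Cdh11*. The share of *Cdh2* in control and HD-het cells was then 83.5% and 86.6%, and that of *Cdh13* was 10.98% and 7.43%. *Cdh6* then took 0.789% of the control sum, against 0.485% with the longest transcript.

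**Figure D2:**
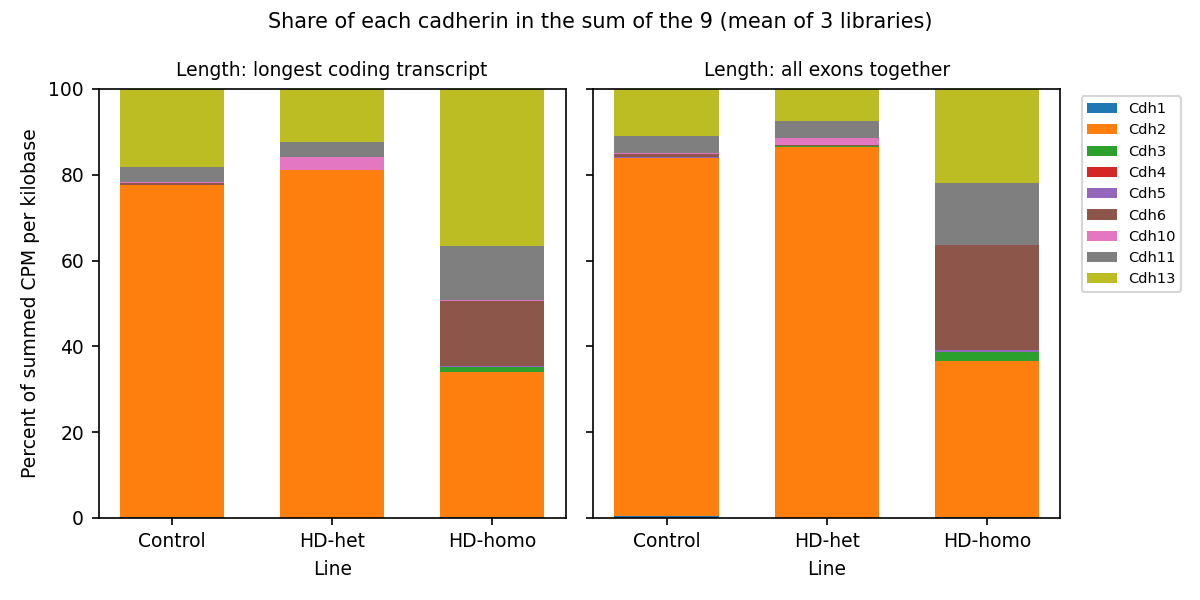
Percent of the summed CPM per kilobase of the 9 cadherins taken by each gene, as the mean of the 3 libraries of a line, with the longest coding transcript (left) or all exons together (right) as the length of a gene. *Cdh2* takes 77.3% and 81.1% of the control and HD-het bars on the left and 33.8% of the HD-homo bar, in which *Cdh6*, *Cdh11* and *Cdh13* take most of the rest.

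Between HD-homo and control cells, 6 of the 8 tested cadherins differed at an adjusted p under 0.05 in edgeR's quasi-likelihood test, fitted to all 13508 genes. Of these, 2 were higher and 4 lower in HD-homo cells. Over all tested genes 58.6% were called in this comparison, 29.6% higher and 28.9% lower, so that the count alone does not set the cadherins apart. When the change also had to reach 1 in log2 units in either direction, 5 of the 8 were called, against 19.1% of all tested genes.

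Between HD-het and control cells, 6 of the 8 were called, 1 higher and 5 lower in HD-het cells, where 65.1% of all tested genes were called, 33.8% higher and 31.4% lower. Here 5 of the 8 also reached 1 in log2 units (18.4% of all genes). Between the HD lines 6 were called, 4 higher and 2 lower in HD-homo cells (71.6% of all genes called, 36.0% higher and 35.6% lower), and all 6 passed the requirement on size (24.3% of all genes).

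The libraries of both lines did not overlap for 6 of the 8 in HD-homo against control (65.3% of all genes), for 6 in HD-het against control (74.0%) and for 5 in HD-homo against HD-het (72.8%). The median size of the log2 fold change of the 8 was 2.40 in the first of these comparisons (0.318 over all tested genes), 1.91 in the next (0.401) and 2.23 in the last (0.464). These counts and medians are a description only. *Cdh1*, *Cdh3* and *Cdh5* had at least 10 counts in every library of only 1 line, and *Cdh10* of control and HD-het cells, so that these genes passed the filter through the lines in which they were high. Their calls between those lines and the lines in which they were low were partly fixed by the filter. The comparisons with control cells share the control libraries.

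**Figure D3:**
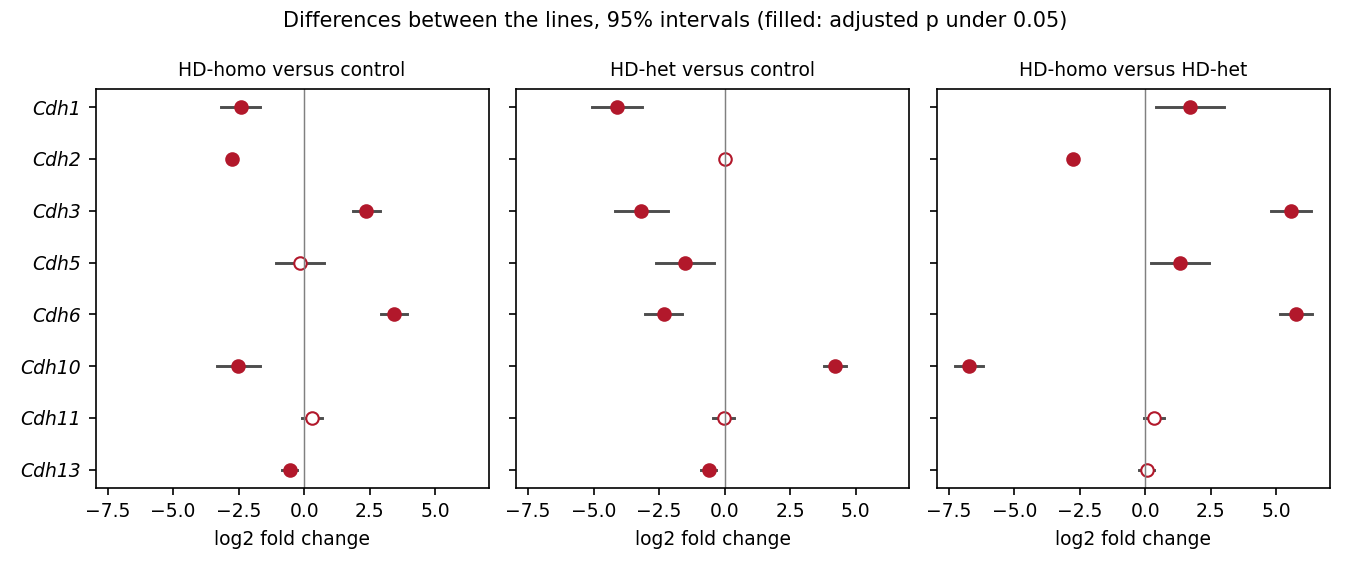
Log2 fold changes of the 8 tested cadherins with 95% intervals in the 3 comparisons, filled where the adjusted p is under 0.05; the interval of *Cdh2* lies within the marker. *Cdh3* and *Cdh6* lie to the right of 0 for HD-homo and to the left for HD-het cells, and *Cdh10* lies on the opposite sides.

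*Cdh2*, which encodes N-cadherin and is the main cadherin of the neuroepithelium, was lower in HD-homo cells than in either other line. In GRCm38 the gene spans 16588877 to 16809246 on chromosome 18, minus strand. The CPM of *Cdh2* in replicates 1, 2 and 3 was 404, 399.6 and 416 in control libraries, 407, 390.3 and 433 in HD-het libraries, and 64.0, 61.4 and 54.3 in HD-homo libraries. The control and HD-het libraries overlapped, and the 3 HD-homo libraries lay far below both. *Cdh2* mRNA was 6.79-fold lower in HD-homo than in control, or -2.76 ± 0.0724 in log2 units (SE, edgeR adjusted p = 1.0e-10), and 6.84-fold lower than in HD-het cells, or -2.77 ± 0.0724 in log2 units (SE, edgeR adjusted p = 8.3e-11). The log2 fold change between HD-het and control cells was 0.01, with a 95% interval from -0.14 to 0.16 (edgeR adjusted p = 0.884).

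Markers of neural progenitors moved with *Cdh2* in HD-homo cells. The 8 genes of that list summed to between 667 and 709 CPM in control, 966 and 1005 CPM in HD-het and 32.7 and 45.5 CPM in HD-homo libraries, and of its 6 tested genes 5 were lower in HD-homo than in control, *Nes*, *Sox2* and *Pax6* among them, and 1, *Fabp7*, was higher (28.9% of all tested genes were lower and 29.6% higher). Most of this sum was *Nes*, with a mean CPM of 526 in control, 840 in HD-het and 28.4 in HD-homo cells. In HD-het against control 4 of the 6 were higher and 1 was lower (33.8% and 31.4% of all genes). The lower one was *Sox2* (log2 fold change -0.63, edgeR adjusted p = 2.0e-05). *Sox1* (0 to 5 counts) and *Pax6* (4 to 5) were low in HD-homo libraries and passed the filter through the other lines, so that their calls as lower were partly fixed by it. *Hes5*, also on the list, had 0 counts in every library. The part of these markers in the result for *Cdh2* was not tested. In bulk RNA, fewer cells of a type and less RNA per cell cannot be told apart.

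*Cdh1*, the epithelial E-cadherin, was low throughout and lower in both HD lines than in control cells. The gene spans 106603351 to 106670246 on chromosome 8, plus strand. In control libraries 30, 29 and 28 reads were counted on *Cdh1*, in HD-het libraries 2, 2 and 1, and in HD-homo libraries 6, 3 and 9. No HD library reached the lowest control library, and the HD-homo libraries lay above the HD-het libraries.

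The CPM of *Cdh1* was 0.914 ± 0.0453 (SD, n = 3) in control and 0.174 ± 0.0990 (SD, n = 3) in HD-homo cells, a 5.24-fold lower level, or -2.42 ± 0.341 in log2 units (SE, edgeR adjusted p = 1.0e-04). With at most 2 reads per HD-het library, the difference from control cells is given as a ratio of summed counts. *Cdh1* was 18.6 times higher in control than in HD-het cells (exact 95% interval of counting error 7.65 to 58.6), and the test gave an adjusted p of 9.7e-06. Between the HD lines the ratio was 3.38 in favour of HD-homo cells (exact 95% interval of counting error 1.21 to 11.6, edgeR adjusted p = 0.0232). That call was lost with DESeq2's Wald test (adjusted p = 0.0506), and without HD-het replicate 1 (0.0510), HD-het replicate 3 (0.0748), HD-homo replicate 1 (0.0536) or HD-homo replicate 3 (0.131).

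*Cdh3*, which encodes P-cadherin of basal epithelial cells, lies just upstream of *Cdh1* on the same strand of chromosome 8, from 106510891 to 106557297. The gap between them is 46.1 kb and holds 1 other protein-coding gene, *Gm10073*. In control libraries 8, 15 and 14 reads were counted on *Cdh3*, in HD-het libraries 2, 1 and 1, and in HD-homo libraries 62, 89 and 69. The lines did not overlap, with HD-homo the highest and HD-het the lowest. Unlike its neighbour *Cdh1*, *Cdh3* was higher in HD-homo than in control.

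The CPM of *Cdh3* was 0.389 ± 0.122 (SD, n = 3) in control and 2.02 ± 0.108 (SD, n = 3) in HD-homo cells, a 5.19-fold higher level, or 2.37 ± 0.231 in log2 units (SE, edgeR adjusted p = 5.2e-06). Relative to HD-het cells, the summed counts of *Cdh3* were 9.86 times higher in control cells (exact 95% interval of counting error 3.54 to 38.1, edgeR adjusted p = 9.5e-05). In HD-homo cells they were 51.6 times those of HD-het cells (exact 95% interval of counting error 19.9 to 191, edgeR adjusted p = 7.7e-08). *Cdh3* passed the filter through the HD-homo line alone, so that its calls between that line and the others were partly fixed by the filter.

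Most other epithelial markers were scarce as well. Among the 10 on that list, *Cldn3* and *Esrp1* were at 3 counts or fewer in every library of each line. *Epcam* did not pass the filter, with 0 to 1 counts in control, 2 to 4 in HD-het and 8 to 14 in HD-homo libraries. The list summed to between 14.9 and 17.0 CPM in control, 10.003 and 14.3 CPM in HD-het and 8.65 and 10.4 CPM in HD-homo libraries. The largest part of this sum was *Krt19*, with a mean CPM of 12.8 in control, 12.2 in HD-het and 4.58 in HD-homo cells, above *Cdh1* and *Cdh3* in each line. All 4 tested genes of the list differed in HD-homo against control, where 58.6% of all genes did. *Krt18* and *Esrp2* passed the filter through the HD-homo line alone, with at most 6 and 2 counts in any library of the other lines, so that their calls were largely fixed by the filter. *Krt18*, a keratin of simple epithelia, and *Esrp2*, an epithelial splicing regulator, were higher in HD-homo cells, as *Cdh3* was, and the keratins *Krt8* and *Krt19* were lower, as *Cdh1* was. Their part in the results for *Cdh1* and *Cdh3* was not tested.

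*Cdh4*, which encodes the R-cadherin of retina and brain, was not detectable at this depth in control cells, where 0 reads were counted in each of the 3 libraries. In HD-het libraries 1, 1 and 3 reads were counted on *Cdh4* and in HD-homo libraries 0, 0 and 1. A count of 0 allows a level of up to 0.0892 to 0.101 CPM in the control libraries. No fold change is given, since no library exceeded the floor of 3 counts.

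*Cdh6* and *Cdh10* moved in opposite directions in both HD lines. *Cdh6*, which encodes K-cadherin, is known from the embryonic kidney and from the developing forebrain, and *Cdh10* is known from brain. Both lie on chromosome 15 of GRCm38, *Cdh6* on the minus strand from 13028701 to 13173675 and *Cdh10* on the plus strand from 18818947 to 19014236. The 5.65 Mb between them hold 1 other protein-coding gene, *Cdh9*, which had 0 counts in all 9 libraries.

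Promoter sequence from RefSeq (GRCm38.p6) was matched for 2 of the 9 genes, *Cdh6* and *Cdh10*, and is shown because these neighbours had opposite patterns. Each covers 250 bases before to 50 bases after the start of transcription, at chr15:13173626-13173925 on the minus strand for *Cdh6* and chr15:18820079-18820378 on the plus strand for *Cdh10*. The RefSeq start of *Cdh10* lies inside the span that GENCODE gives for the gene. Capitals mark CpG dinucleotides.
Cdh6: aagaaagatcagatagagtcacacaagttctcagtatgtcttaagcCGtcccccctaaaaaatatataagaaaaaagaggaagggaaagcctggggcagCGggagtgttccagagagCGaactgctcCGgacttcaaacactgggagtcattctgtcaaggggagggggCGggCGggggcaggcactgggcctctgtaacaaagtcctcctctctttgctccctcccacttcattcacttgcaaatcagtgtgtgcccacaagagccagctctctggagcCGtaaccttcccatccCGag
Cdh10: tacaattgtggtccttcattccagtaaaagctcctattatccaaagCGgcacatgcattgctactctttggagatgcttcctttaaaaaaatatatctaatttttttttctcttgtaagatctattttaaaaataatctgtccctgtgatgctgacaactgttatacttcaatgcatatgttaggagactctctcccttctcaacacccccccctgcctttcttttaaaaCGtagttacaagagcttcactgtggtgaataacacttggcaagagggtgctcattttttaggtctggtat

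The *Cdh6* promoter holds 8 CpG dinucleotides and 53% G and C, and the *Cdh10* promoter holds 2 CpG dinucleotides and 37.7% G and C, against a median of 7 CpG dinucleotides over the 32851 promoters of the same length in the table. The letters CACCTG, which repressors of the Snail and Zeb families are known to bind, were searched on both strands (CAGGTG on the other). They occur in neither window and in 20.2% of all promoters of this length.

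The CPM of *Cdh6* was 4.88, 4.28 and 3.72 in control replicates 1, 2 and 3, 0.677, 0.884 and 1.02 in HD-het, and 54.0, 29.8 and 54.5 in HD-homo libraries. All 3 lines were apart, with HD-homo replicate 2 below the other HD-homo libraries but well above every control library. HD-homo cells had 10.7-fold more *Cdh6* mRNA than control cells, or 3.42 ± 0.227 in log2 units (SE, edgeR adjusted p = 2.2e-07). In HD-het cells it was 5.00-fold lower than in control cells, or -2.32 ± 0.318 in log2 units (SE, edgeR adjusted p = 6.7e-05). Between the HD lines the difference was 53.6-fold (log2 fold change 5.74, standard error 0.280, edgeR adjusted p = 1.2e-08).

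For *Cdh10*, 24, 15 and 13 reads were counted in control libraries, 353, 369 and 310 in HD-het libraries and 4, 3 and 3 in HD-homo libraries. The order of the lines was thus the reverse of that for *Cdh6*, again without overlap. The CPM of *Cdh10* was 0.544 ± 0.175 (SD, n = 3) in control and 10.2 ± 0.998 (SD, n = 3) in HD-het cells, an 18.7-fold higher level, or 4.21 ± 0.193 in log2 units (SE, edgeR adjusted p = 1.9e-08). Summed counts were 5.91 times higher in control than in HD-homo cells (exact 95% interval of counting error 2.97 to 13.0, edgeR adjusted p = 1.4e-04) and 110.0 times higher in HD-het than in HD-homo cells (exact 95% interval of counting error 59.6 to 230.1, edgeR adjusted p = 1.4e-09).

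*Cdh11*, which encodes OB-cadherin of bone and mesenchymal cells, showed no difference that passed the test. The gene spans 102632095 to 102785642 on chromosome 8, minus strand. Its CPM was 21.9, 22.8 and 20.4 in control replicates 1, 2 and 3, 19.2, 18.6 and 25.3 in HD-het and 22.9, 21.6 and 35.3 in HD-homo libraries. Replicate 3 was the highest library in both HD lines, and the lines overlapped. Of 8 tested mesenchymal markers, 6 were higher and 0 lower in HD-homo against control (29.6% of all genes higher), with an edgeR adjusted p of 0.305 for *Postn* and 0.353 for *Col3a1*, the other 2. In HD-het against control 5 were higher and 2 lower (33.8% and 31.4% of all genes), the lower ones being *Col1a2* with -4.54 and *Dcn* with -1.30 in log2 units. Their part in the values of *Cdh11* was not tested.

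The log2 fold change of *Cdh11* was 0.29 between HD-homo and control cells (95% interval -0.09 to 0.68, edgeR adjusted p = 0.174) and -0.04 between HD-het and control cells (95% interval -0.43 to 0.35, edgeR adjusted p = 0.836). Between the HD lines it was 0.34 (95% interval -0.05 to 0.72, edgeR adjusted p = 0.106). Without HD-het replicate 3 this last value was 0.49 and passed (adjusted p = 0.0338), and without HD-homo replicate 2 it was 0.47 (adjusted p = 0.0296). Of the 50-base words of the *Cdh11* transcript, 3.23% also occur in 8 other genes, so that some of its reads could have been counted elsewhere. For *Cdh6* this share was 0.111%, and for the other 7 it was 0.

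*Cdh5*, the VE-cadherin of endothelial junctions, was close to the limit of detection. The gene spans 104101625 to 104144511 on chromosome 8, plus strand. In control libraries 10, 11 and 14 reads were counted on *Cdh5*, in HD-het libraries 7, 4 and 2, and in HD-homo libraries 12, 7 and 16. The HD-het libraries lay below the control libraries, and the HD-homo libraries overlapped with both other lines.

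The CPM of *Cdh5* was 0.371 ± 0.0894 (SD, n = 3) in control, 0.126 ± 0.0689 (SD, n = 3) in HD-het and 0.337 ± 0.158 (SD, n = 3) in HD-homo. HD-het differed from control by -1.50 ± 0.503 in log2 units (SE, edgeR adjusted p = 0.0215), a call that was lost without control replicate 3 (adjusted p = 0.0773), HD-het replicate 2 (0.0585) or HD-het replicate 3 (0.0750). Between the HD lines it was 1.33 in favour of HD-homo cells (standard error 0.505, edgeR adjusted p = 0.0337), and 5 alternatives ended that call. These were DESeq2's Wald test (adjusted p = 0.0675) and leaving out HD-het replicate 2 (0.0820), HD-het replicate 3 (0.115), HD-homo replicate 1 (0.0794) or HD-homo replicate 3 (0.132). Between HD-homo and control cells the log2 fold change was -0.17 (95% interval -1.08 to 0.75, edgeR adjusted p = 0.746).

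Of the 10 endothelial markers, *Tie1*, *Cldn5* and *Emcn* were at 3 counts or fewer in every library of each line, and *Pecam1* was at that level in control and HD-het cells. The list summed to between 4.42 and 5.21 CPM in control, 4.27 and 5.05 CPM in HD-het and 6.13 and 6.89 CPM in HD-homo libraries. Most of this sum was *Egfl7*, with a mean CPM of 3.81 in control, 3.31 in HD-het and 5.04 in HD-homo cells, which was higher in HD-homo than in control (edgeR adjusted p = 0.0209). *Kdr*, a receptor of VEGF, had a mean CPM of 0.423 in control, 0.865 in HD-het and 0.502 in HD-homo cells and was higher in HD-het than in control (edgeR adjusted p = 0.0101), where *Cdh5* was lower. Their part in the values of *Cdh5* was not tested.

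*Cdh13*, whose T-cadherin protein binds adiponectin, was the second most abundant of the 9 genes in control and HD-het cells. The gene spans 118283733 to 119324921 on chromosome 8, plus strand. Its CPM was 73.7, 74.3 and 75.2 in control replicates 1, 2 and 3, 57.5, 52.6 and 36.1 in HD-het and 48.3, 51.2 and 52.6 in HD-homo libraries. Every HD library lay below every control library, and HD-het replicate 3 was the lowest.

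The differences of *Cdh13* were smaller than those of the other cadherins that passed the test. *Cdh13* mRNA was 1.47-fold lower in HD-homo than in control, or -0.55 ± 0.131 in log2 units (SE, edgeR adjusted p = 0.00379), and 1.53-fold lower in HD-het than in control, or -0.61 ± 0.132 in log2 units (SE, edgeR adjusted p = 0.00172). Between the HD lines the log2 fold change of *Cdh13* was 0.06 (95% interval -0.23 to 0.35, edgeR adjusted p = 0.713).

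For each tested cadherin, the genes most alike were taken as those with the smallest root mean square difference in centred log2 CPM over the 9 libraries. The 9 libraries fall into 3 lines, so that a small distance mainly means a like order and size of the 3 line means. For *Cdh2* they were *Zfhx4* (0.144), *Rims2* (0.159) and *Tmem200a* (0.161). *Rims2*, which encodes a protein of the presynaptic active zone, had a mean CPM of 39.9 in control, 33.5 in HD-het and 5.07 in HD-homo cells.

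For *Cdh6* the most similar genes were *Ptpn22* (0.287), *Ackr3* (0.376) and *Cacna1g* (0.384). The chemokine receptor gene *Ackr3* had a mean CPM of 24.2 in control, 4.11 in HD-het and 209.4 in HD-homo cells. For *Cdh3* they were *Il34* (0.243), *Enthd1* (0.258) and *Notum* (0.361), of which *Il34* encodes a ligand of the CSF1 receptor and *Notum* a secreted inhibitor of Wnt proteins. Around *Cdh10* stood *Mfap4* (0.188), *Car2* (0.366) and *Entpd1* (0.440). *Mfap4*, a gene of the extracellular matrix, had a mean CPM of 0.167 in control and 4.24 in HD-het cells and 0 counts in HD-homo cells.

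Around *Cdh1* stood *Asic1* (0.224), *Slc2a3* (0.274) and *Lingo3* (0.323), and around *Cdh5* stood *Sema5a* (0.274), *Fam131b* (0.301) and *Ngef* (0.306). The closest genes for *Cdh11* were *Cog8* (0.0794), *Srprb* (0.131) and *Surf2* (0.134), and for *Cdh13* they were *LOC108168313* (0.111), *Slc4a8* (0.114) and *Zbtb44* (0.126).

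Of 11 further type I and type II cadherins, 5 passed the filter. In HD-homo against control, 1 of the 5 was higher and 3 were lower (29.6% and 28.9% of all genes), with a median log2 fold change of -0.49 (0.01 over all tested genes), and between HD-het and control cells 3 were higher and 0 lower (33.8% and 31.4% of all genes), with a median of 0.98 (0.03 over all tested genes). Of the other 2, *Cdh12* had an edgeR adjusted p of 0.663 and *Cdh24* of 0.661. *Cdh22*, a type II cadherin of brain, had between 59 and 117 counts in control, between 549 and 972 in HD-het and 1 or 2 in HD-homo libraries. The lines thus stood in the same order as for *Cdh10*. HD-het differed from control by 3.05 in log2 units (edgeR adjusted p = 6.8e-07), and summed counts of *Cdh22* were 77.6 times higher in control than in HD-homo cells (exact 95% interval of counting error 29.95 to 286.7, edgeR adjusted p = 2.0e-06). *Cdh26* was also higher in HD-het and lower in HD-homo cells, with 43 to 49 counts in control, 91 to 146 in HD-het and 0 to 2 in HD-homo libraries. *Cdh22* and *Cdh26* passed the filter through control and HD-het cells, so that their calls as lower in HD-homo cells were partly fixed by the filter. *Cdh18* was higher in both HD lines, and *Cdh24*, the most abundant of the 5, was lower in HD-homo cells by a log2 fold change of -0.49 (edgeR adjusted p = 0.00257).

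The genes of a list of catenins and adherens junction linkers were all detected. The list holds 16 tested genes, since *Afdn* is also listed under its older symbol, *Mllt4*. *Ctnnbip1*, 1 of the 16, encodes a protein that binds beta-catenin and is no linker itself. It was lower in both HD lines than in control, with log2 fold changes of -0.23 in HD-het (edgeR adjusted p = 0.0103) and -1.26 in HD-homo cells (edgeR adjusted p = 4.2e-08). Between HD-het and control cells 10 of the 16 were higher and 4 lower (33.8% and 31.4% of all genes), with a median log2 fold change of 0.46 (0.03 over all genes). Between HD-homo and control cells 2 were higher and 9 lower (29.6% and 28.9% of all genes), with a median of -0.27 (0.01 over all genes). *Pkp4*, a p120-related protein, had the largest increase of the list in HD-homo cells (log2 fold change 0.41, edgeR adjusted p = 2.6e-04), and *Ctnnd2*, the delta-catenin of neurons, the largest decrease. With 1 to 4 counts in HD-homo and 25 to 32 in control libraries, the summed counts of *Ctnnd2* were 12.1 times higher in control cells (exact 95% interval of counting error 5.86 to 28.9, edgeR adjusted p = 3.7e-06). *Ctnnd2* passed the filter through control and HD-het cells, so that this call was partly fixed by the filter. In HD-het cells *Ctnnd2* was higher than in control by 2.84 in log2 units (edgeR adjusted p = 1.9e-07), the same order of the lines as for *Cdh10* and *Cdh22*.

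The core catenins were named after their values were seen. *Ctnnb1*, which encodes beta-catenin, had a mean CPM of 625 in control, 895 in HD-het and 683 in HD-homo cells, and its log2 fold change was 0.13 in HD-homo (edgeR adjusted p = 0.0479) and 0.52 in HD-het cells (edgeR adjusted p = 4.8e-06). *Ctnnd1*, which encodes p120-catenin, had values of 0.06 (adjusted p = 0.382) and 0.91 (adjusted p = 2.7e-07), and *Ctnna1*, which encodes alpha-catenin, had -0.20 (adjusted p = 0.00569) and 0.51 (adjusted p = 5.3e-06). *Jup*, which encodes plakoglobin, was lower in HD-homo cells by a log2 fold change of -0.74 (edgeR adjusted p = 1.5e-04) and higher in HD-het cells by 0.45 (edgeR adjusted p = 0.00331).

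**Figure D4:**
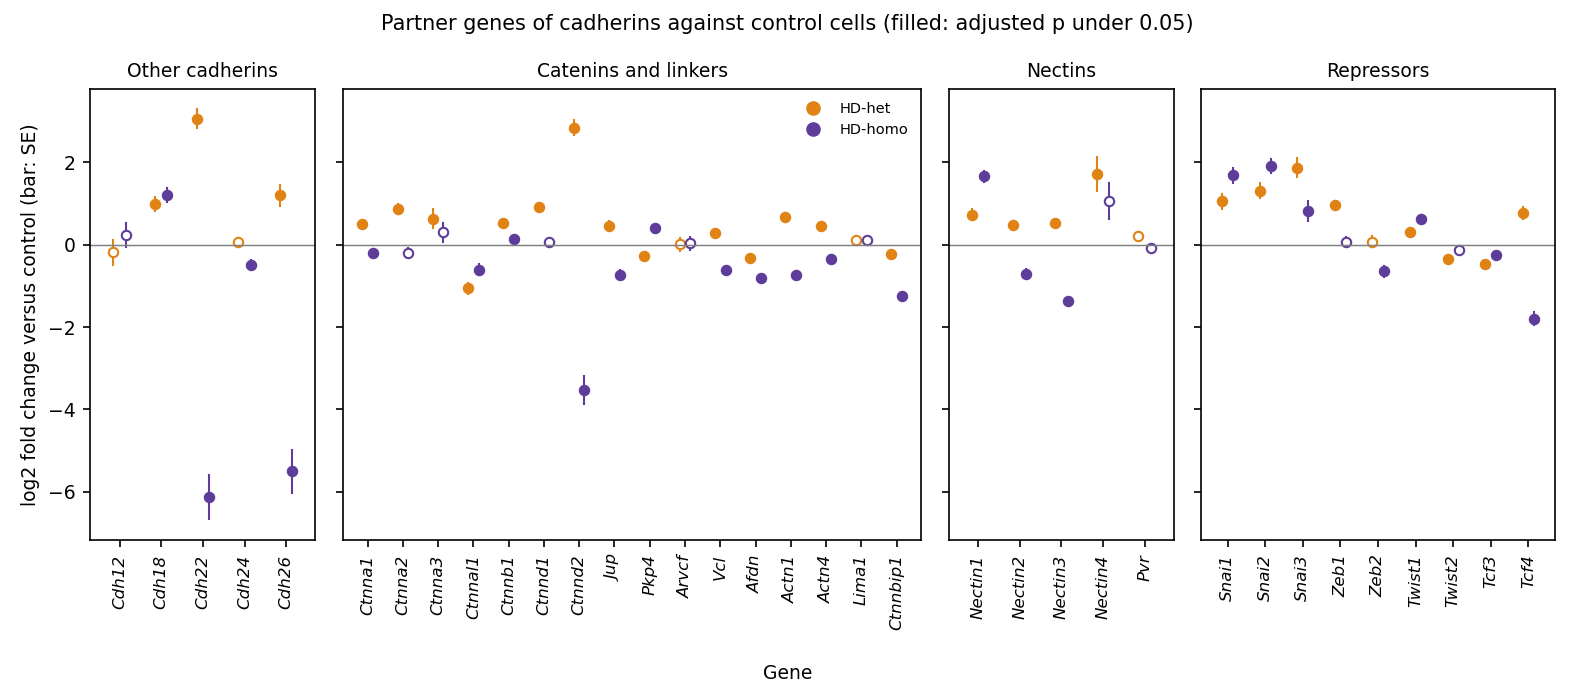
Log2 fold change against control cells, with its standard error, of tested genes in HD-het (orange) and HD-homo cells (purple), filled where the adjusted p is under 0.05. Among the 16 catenins and linkers 10 were higher and 4 lower in HD-het cells (33.8% and 31.4% of all genes). In HD-homo cells 2 were higher and 9 lower (29.6% and 28.9% of all genes). *Cdh22* and *Ctnnd2* both lie far above 0 in HD-het and far below 0 in HD-homo cells.

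Transcription factors known to repress *Cdh1* were present in all lines. Of 9 tested genes, 6 were higher and 2 lower in HD-het than in control (33.8% and 31.4% of all genes), with a median log2 fold change of 0.78 (0.03 over all genes), and 4 were higher and 3 lower in HD-homo than in control (29.6% and 28.9% of all genes), with a median of 0.07 (0.01 over all genes). *Snai1* had a mean CPM of 18.5 in control, 38.3 in HD-het and 59.2 in HD-homo cells, with log2 fold changes of 1.05 (edgeR adjusted p = 3.2e-04) and 1.68 (edgeR adjusted p = 1.0e-05). *Snai2* rose by 1.31 in HD-het (edgeR adjusted p = 6.6e-05) and 1.91 in HD-homo cells (edgeR adjusted p = 3.5e-06). *Zeb1* was higher in HD-het cells by 0.96 (edgeR adjusted p = 1.5e-05), and in HD-homo cells its value was 0.07 (edgeR adjusted p = 0.591). *Tcf4*, a bHLH factor of neural progenitors, had the largest decrease in HD-homo cells, with a log2 fold change of -1.80 (edgeR adjusted p = 1.6e-06), and was higher in HD-het cells by 0.78 (edgeR adjusted p = 7.5e-04). *Tcf3* was lower in both HD lines, with -0.46 in HD-het (edgeR adjusted p = 7.4e-05) and -0.24 in HD-homo cells (edgeR adjusted p = 0.00717). *Zeb2* was lower in HD-homo (-0.65) and *Twist2* in HD-het cells (-0.35). *Snai3* and *Twist1* were higher in both. Their part in the levels of *Cdh1* was not tested.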

How the data were processed

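Poly(A) RNA of the 3 lines was sequenced from directional libraries, and the deposited values are whole-number counts per gene symbol without normalization. The submitters' processing notes name cutadapt, Bowtie 1.1.2, RSEM 1.3.0, DESeq2 and the builds GRCm38.p5 and mm10. Whether the counts are rounded RSEM estimates, and whether strand was used in counting, is not given in the sources used here.

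Analysis used edgeR 4.0.16 in R 4.3.3. Genes were filtered by filterByExpr (minimum count 10, lines as groups), libraries were normalized by TMM, and all 9 libraries entered a model with 1 mean per line, tested by the two-sided quasi-likelihood test, with Benjamini-Hochberg adjustment over 13508 genes and a threshold of 0.05. The steps were tested on simulated data. CPM uses the normalized totals over tested genes. Same-numbered libraries were not treated as pairs, because in each comparison at least 1 of 3 correlations of their deviations was under 0.1.

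The members and lists were chosen with earlier results of these data known. All 9 members are named. From the list of catenins and linkers the text names the largest called increase and decrease in HD-homo cells. The other lists have at most 9 tested genes, any of which could be named, and their largest changes were not always named. Left out were *Pdgfra* (log2 fold change 5.87) and *Adam15* (-1.06) in HD-homo against control. Lists of astrocyte, oligodendrocyte and microglia markers are not reported. *Ctnnb1*, *Ctnnd1*, *Ctnna1*, *Jup* and *Ctnnbip1* fall outside these rules and were chosen after their values were seen. Each member also has its 3 most similar genes.

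Positions and transcript lengths come from GENCODE M21 (GRCm38). Alternatives were DESeq2's size factors, library totals, the Wald test of DESeq2 1.42.0, no filter, only the 2 lines compared, the replicate number as a block, a prior count of 2, each library left out, and a log2 fold change of at least 1.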

Additional observations from a re-analysis of the deposited data

Results flagged for a closer look

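For 3 cadherins the difference from control cells had opposite signs in the HD lines, both past the threshold, and the difference between the HD lines passed as well in edgeR's quasi-likelihood test. Over all tested genes, 58.6% were called in HD-homo against control, 65.1% in HD-het against control and 71.6% between the HD lines. The share of all genes with this whole pattern is not given, so that the 3 are a description only. *Cdh3* had log2 fold changes of -3.19 in HD-het and 2.37 in HD-homo cells, which differed by 5.56 (adjusted p = 7.7e-08). *Cdh6* had -2.32 and 3.42, which differed by 5.74 (adjusted p = 1.2e-08). *Cdh10* had 4.21 in HD-het and -2.51 in HD-homo cells, a difference of -6.73 (adjusted p = 1.4e-09). The values of *Cdh3* in HD-het cells and of *Cdh10* in HD-homo cells rest on at most 4 counts per library, so that the size of their fitted changes depends on the prior count. *Cdh3* also passed the filter through the HD-homo line alone, and *Cdh10* through control and HD-het cells. Their calls between those lines and the lines in which they were low were partly fixed by the filter.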

How the results depend on the processing

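The 24 log2 fold changes of the 8 tested cadherins were recomputed under up to 16 alternatives, 381 values in all, of which 358 kept their direction and their side of the threshold. In 13 the call was lost and in 2 it was gained, and these concern *Cdh1*, *Cdh5* and *Cdh11* as given with their values in the report. The sign changed in 8 values, none of which passed the threshold. Between HD-het and control cells these were *Cdh2* (0.01, and 0.048 at the highest with a library left out) with library totals only (-0.003), without control replicate 2 (-0.001) and without HD-het replicate 3 (-0.028), and *Cdh11* without HD-het replicate 1 (0.019) and without HD-het replicate 2 (0.036), against -0.198 at the lowest with a library left out. Between HD-homo and control cells they were *Cdh5* without control replicate 3 (0.034) and without HD-homo replicate 2 (0.201), against -0.519 at the lowest, and between the HD lines *Cdh13* without HD-het replicate 3 (-0.12), against 0.191 at the highest. With only the 2 lines compared, *Cdh3* between HD-het and control cells and *Cdh1* and *Cdh5* between the HD lines did not pass the filter and have no value. A prior count of 2 lowered the differences that rest on counts near the floor, to -3.17 for *Cdh1* and -2.19 for *Cdh3* between HD-het and control cells, and to 1.07, 4.41 and -6.08 for *Cdh1*, *Cdh3* and *Cdh10* between the HD lines.

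When a change of 1 in log2 units was required as well, the genes called in HD-homo against control numbered 2574 (7910 without this), those in HD-het against control 2490 (8797) and those in HD-homo against HD-het 3285 (9666). With each library left out in turn, these counts of all genes ran from 6842 to 8068, from 7865 to 9216 and from 8977 to 9675, and the number of cadherins called was 6 throughout, 5 to 6 and 4 to 7. The replicate number as a block gave 8372, 9160 and 9938 genes and 6 cadherins in each comparison. As a hint from the data and not the design, 6 of 6 libraries of HD-homo and control cells, and 5 of 6 in each of the other comparisons, correlated best with the library of their own number.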

Other observations

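The nectins are immunoglobulin-like receptors that share adherens junctions with cadherins. Of 5 tested genes, 4 were higher and 0 lower in HD-het than in control by edgeR's quasi-likelihood test. The remaining gene, *Pvr*, had an adjusted p of 0.0673. In this comparison 65.1% of all genes were called, 33.8% higher and 31.4% lower. With 3 to 8 counts in control libraries, *Nectin4* passed the filter through the HD lines, so that its call was partly fixed by the filter. In HD-homo against control 1 was higher and 2 were lower, where 58.6% of all genes were called, 29.6% higher and 28.9% lower. *Pvr* (adjusted p = 0.516) and *Nectin4* (0.0585) did not pass. *Nectin3*, which is expressed in neural tissue, had a mean CPM of 83.3 in control, 120.5 in HD-het and 32.1 in HD-homo cells, with log2 fold changes of 0.53 (adjusted p = 7.2e-05) and -1.38 (adjusted p = 4.6e-08). *Nectin1* was higher in both HD lines, by 0.73 in HD-het (adjusted p = 4.1e-04) and 1.66 in HD-homo cells (adjusted p = 6.8e-07).

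Among 9 tested genes for enzymes that process cadherins and for proteins that internalise them, 5 were lower and 0 higher in HD-homo than in control, where *Adam10*, *Psen2*, *Hace1* and *Mmp9* did not pass (adjusted p between 0.490 and 0.960) and 28.9% of all tested genes were lower. *Furin*, whose protease removes the cadherin prodomain, had -0.81 in log2 units in HD-homo cells (adjusted p = 2.6e-06) and -0.09 in HD-het cells (adjusted p = 0.315). *Adam10*, which sheds the N-cadherin ectodomain, had -0.04 in HD-homo (adjusted p = 0.646) and 0.52 in HD-het cells (adjusted p = 3.7e-05).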
